A study of Mus musculus with 6 samples.

Results

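Interferon-stimulated genes were followed in mouse bone marrow progenitor cells in which endogenous Mllt3 was targeted for deletion and MLLT3 was supplied by a lentivirus, either in its wild type form (WT, n = 3 libraries) or as MLLT3 K63E K67E (DM, n = 3 libraries), in which both lysines are changed to glutamate. The genes were taken from a list of 41 symbols, and a gene was kept if its values averaged 3 or more across the 6 libraries. All 41 passed this minimum, out of 18766 genes that passed and 55487 in the table. The lowest was Mx2, with a mean of 4.27 in WT and 4.25 in DM, and no listed gene fell below the minimum. Values are regularized log (rlog) values, a log2 scale that is normalized for library size and pulls genes with few reads toward their own mean, so that differences of weakly expressed genes are understated.

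Both groups shared the same treatment. Bone marrow cells positive for cKIT, the stem cell factor receptor, were transduced, sorted and grown for 8 days in semisolid medium with Flt3 ligand at 10 ng/mL and erythropoietin, thrombopoietin, stem cell factor, GM-CSF and interleukins 3, 6 and 11 at 20 ng/mL each. The medium also held 200 nM 4-hydroxytamoxifen to trigger the deletion. There was no group without a vector and no group that kept Mllt3, and the labels place all 6 libraries in batch 1. The allele, the Cre driver and the age of the animals are not given in the sources used here. Nor is it given whether the replicates came from separate animals, so p-values measure only the spread between these libraries, which may be technical.

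Interferons are secreted proteins that signal through paired receptors to the kinases JAK1 and TYK2. These phosphorylate STAT proteins, and the complex that holds STAT2 and IRF9 binds the interferon-stimulated response element (ISRE) in the promoters of their target genes. The products of these genes sense viral RNA, degrade it, block translation or entry, and feed back on the pathway. In haematopoietic progenitors a low level of these transcripts is present without infection, and interferon is known to push stem cells out of dormancy.

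The promoters of several members are shown first, because they hold the element through which interferon signalling is known to act, which was found in fewer than 50% of the members searched. RefSeq promoter windows on GRCm38.p6, from 250 bases before to 50 bases after an annotated start, were found for 32 of the 41 genes. They were searched on both strands for the core of the ISRE (GAAA, then any 2 bases, then GAAA, which reads TTTC, any 2 bases, TTTC on the other strand) and for the gamma-activated site (TTCNNNGAA, which is its own reverse complement). The ISRE core was present for 15 of the 32 members (46.9%), against 3.99% of all 27025 genes with such windows. The gamma-activated site was present for 8 members (25%), against 9.55% of all genes. Below, capitals mark the ISRE core, overlapping matches included, and each stretch runs 5′ to 3′ on the strand of the gene. Bst2 (chr8:71537473-71537612, minus strand) and Isg15 (chr4:156200819-156200958, minus strand) are shown over the 140 bases before the RefSeq start, and Ifit1 (chr19:34640749-34640870, plus strand) over 122 bases that end before the GENCODE start. For Gbp2 (chr3:142620594-142620623, plus strand) and Ifitm3 (chr7:141010716-141010742, minus strand), whose matches lie downstream of an annotated start, only the element and its nearest bases are printed.
Bst2: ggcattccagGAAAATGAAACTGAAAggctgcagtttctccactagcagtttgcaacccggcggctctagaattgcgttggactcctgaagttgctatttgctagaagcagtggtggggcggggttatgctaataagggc
Isg15: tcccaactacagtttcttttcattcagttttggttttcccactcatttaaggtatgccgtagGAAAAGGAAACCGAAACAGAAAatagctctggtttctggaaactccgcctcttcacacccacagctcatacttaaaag
Ifit1: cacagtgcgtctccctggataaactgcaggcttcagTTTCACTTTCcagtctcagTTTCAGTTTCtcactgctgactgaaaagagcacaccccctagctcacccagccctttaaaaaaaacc
Gbp2: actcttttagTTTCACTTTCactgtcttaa
Ifitm3: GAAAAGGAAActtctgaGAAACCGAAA
Counted from the RefSeq start, the matches begin at -130 and -124 in Bst2, at -78, -72 and -66 in Isg15, at -104 and -85 in Ifit1, at -59 in Gbp2, and at 2 and 19 in Ifitm3. In Bst2 a gamma-activated site beginning at -136 overlaps the first of these. The core was present in 4 of the 6 members that differed between the groups (Bst2, Gbp2, Ifitm3 and Trim30a) and in 11 of the 26 others with a window (42.3%), while the windows of Lgals3bp and Parp12 held no match. A match of letters is a description and not a binding site.

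The targeted gene, Mllt3, read 12.87, 12.6 and 12.44 in WT, and in DM 12.44, 12.03 and 11.99 (change -0.48, SE 0.137, limma adjusted p 0.0448). The call was lost without WT replicate 1 or 2 or DM replicate 2 or 3 (-0.5 to -0.36, adjusted p 0.0606 to 0.161). These values do not tell the deleted gene from the transcripts of the vector, so they are no check of the deletion. Kit, the marker by which the cells were taken, lay between 14.29 and 14.58 in WT and between 14.3 and 14.9 in DM. The median over all tested genes was 8.03 to 8.11 in the 6 libraries, and depth is unknown because rlog values keep no counts.

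Of the 41 interferon-stimulated genes, 5 were higher and 1 was lower in DM than in WT. Lgals3bp, Parp12, Gbp2, Trim30a and Bst2 rose by 1.3-fold to 1.54-fold on the rlog scale, and Ifitm3 was 1.5-fold lower. The test was limma over all 18766 genes with Benjamini-Hochberg adjustment and a threshold of 0.05. The share of members called, 14.6%, was near the 13.9% called among all tested genes. In the upward direction it was 12.2% against 9.2%, and downward 2.44% against 4.71%. Higher genes made up 66.1% of all calls, and 51.3% after quantile normalization, which left the same 6 members called. The groups did not overlap for 9 members (22%), 7 above and 2 below, against 35.8% of all genes. At an unadjusted limma p under 0.05 there were 15 members (36.6%), against 28.9% of all genes. The median change over the 41 genes was 0.11, against 0.01 over all tested genes, and 31 members had a higher mean in DM (75.6%, against 51.6% of all genes), or 29 after quantile normalization or centring on library medians. With 1 library left out, this count was 23 without DM replicate 3 (50.8% of all genes), 24 without WT replicate 1 (52.2%) and up to 37 without DM replicate 1 (50.5%). Leaving out 1 library moved the median change from 0.03 (without WT replicate 1) and 0.04 (without DM replicate 3) to 0.18 (without WT replicate 2 or DM replicate 1) and 0.19 (without DM replicate 2). The count of members called was 9 without WT replicate 2 and 5 or 6 without any other single library. Over all 18766 genes the count was 3475 without WT replicate 2 and 1119 to 1998 without any other single library, in place of 2611.

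**Figure D1:**
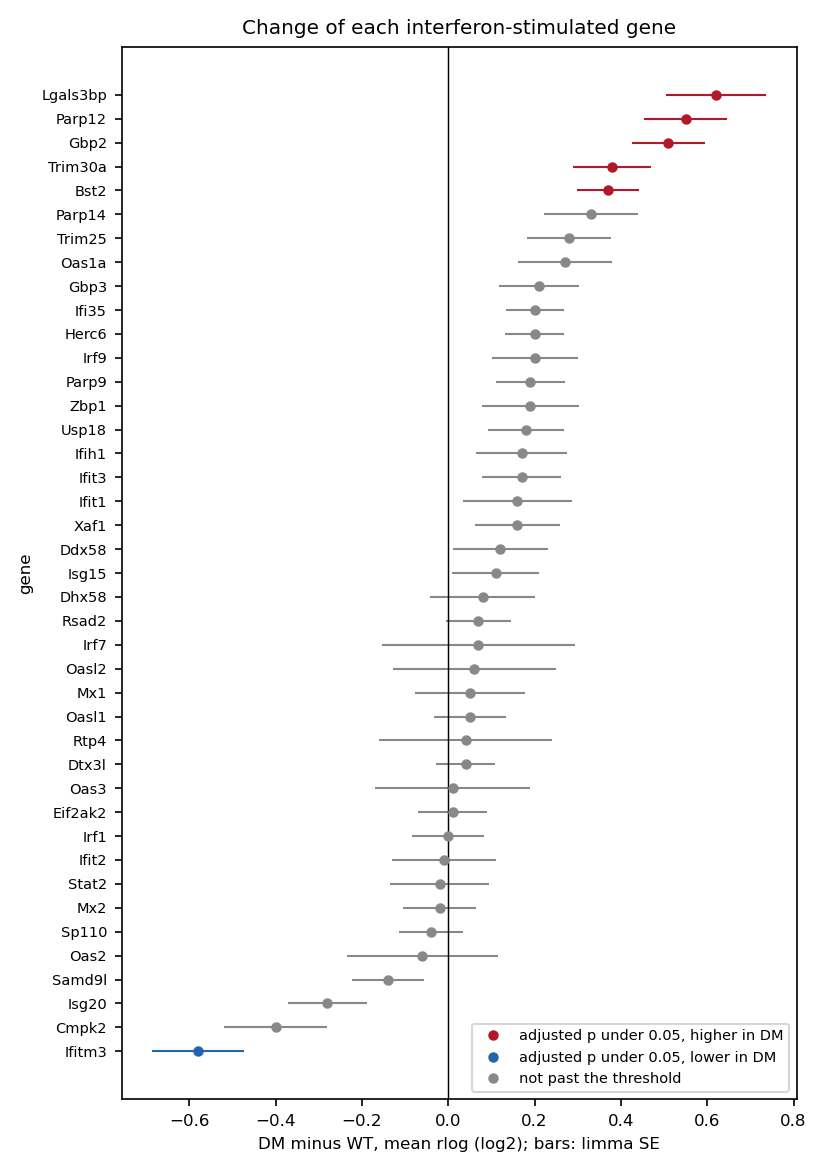
Difference between the mean rlog values of DM and WT for each of the 41 genes (x axis, log2), ordered by size, with the limma standard error as bars and colour for genes past an adjusted p of 0.05. The 5 genes called higher lie from 0.37 to 0.62, Ifitm3 lies at -0.58, and the remaining 35 lie between -0.4 and 0.33.

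The signalling end of the pathway was read from gene lists. None of the 21 interferon genes looked up reached the minimum mean, and their means lay between -1.49 and 1.39. Ifnb1, which encodes interferon beta, was at 0.82, 0.81 and 0.85 in WT and at 0.83, 0.82 and 0.83 in DM. At such values rlog is held close to the gene's own mean, so no statement about the ligands' transcripts can be drawn at this level.

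Genes of 3 receptor subunits rose in DM. Of 11 receptor, kinase and STAT genes, 3 were called, all higher (27.3%), and the median change was 0.2. Over all tested genes, 13.9% were called, 9.2% were called higher, and the median change was 0.01. Il10rb, the shared second chain of the receptors for interferon lambda and interleukin 10, changed by 0.43 (SE 0.0889, limma adjusted p 0.0128). Ifngr2, the signalling chain of the interferon gamma receptor, changed by 0.37 (SE 0.0987, adjusted p 0.0359), and Ifnar1, a chain of the type I receptor, by 0.35 (SE 0.0884, adjusted p 0.0288). Each of these calls was lost in some fits without 1 library, and the fits that lost them called 1119 to 1998 genes in place of 2611. Il10rb lost its call without WT replicate 1 or DM replicate 2 (0.36 to 0.37, adjusted p 0.0567 to 0.0571). Ifngr2 lost it without WT replicate 1 or 3 or DM replicate 2 or 3 (0.28 to 0.37, 0.0609 to 0.14), and Ifnar1 in each fit without 1 library except that without WT replicate 2 (0.29 to 0.36, 0.0648 to 0.116). The partner chain Ifnar2 changed by 0.27 (adjusted p 0.0801), Jak1 by 0.23 (0.0738) and Tyk2 by 0.2 (0.0987), none of them past the threshold. For this list the count was 0 without WT replicate 1 or DM replicate 2, 1 without DM replicate 3 and 6 without WT replicate 2.

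None of the 4 transcription factors among the members passed the test. For Irf7, the factor that amplifies type I interferon production, the WT libraries read 8.25, 8.63 and 8.8 and the DM libraries 8.4, 8.29 and 9.22. DM replicate 3 alone stood above the WT range, and the change was 0.07 (SE 0.223, limma adjusted p 0.849). Irf9, the DNA-binding subunit of the complex formed with STAT2, had 9.4, 9.58 and 9.63 in WT and 9.73, 9.56 and 9.92 in DM. The ranges of Irf9 overlapped through DM replicate 2, and the change was 0.2 (SE 0.0998, adjusted p 0.221). Stat2 had 10.16, 10.33 and 10.17 in WT and 10.09, 10.03 and 10.48 in DM, so that DM held both its lowest and its highest value (change -0.02, adjusted p 0.921). Irf1, which is induced by interferon gamma as well, was the closest to no difference, with means of 9.4 in WT and 9.39 in DM.

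The sensors of foreign nucleic acid likewise did not pass. Ddx58 (RIG-I) and Ifih1 (MDA5) bind viral double-stranded RNA, Dhx58 (LGP2) modulates both, Zbp1 recognises Z-form nucleic acid, and Eif2ak2 (PKR) halts translation. All 5 had a higher mean in DM, with changes from 0.01 for Eif2ak2 to 0.19 for Zbp1 (limma adjusted p 0.298). In all 5, DM replicate 3 held the highest value of the 6 libraries, and WT replicate 1 the lowest in 4.

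The 5 members of the OAS family, which make the 2′-5′ oligoadenylates that activate RNase L or are related in sequence to those that do, had changes between -0.06 and 0.27. Oasl2 had 7.64, 7.93 and 7.83 in WT and 7.62, 7.57 and 8.39 in DM. Oas2 had 8.03, 8.26 and 8.13 in WT and 7.84, 7.84 and 8.58 in DM. For both genes DM replicates 1 and 2 lay below every WT library and DM replicate 3 above every one, and Oas3 had the same order. Oas1a, one of several close copies, had the largest change of the family at 0.27 (SE 0.109, limma adjusted p 0.132), and without WT replicate 2 it passed the threshold (adjusted p 0.0244).

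The IFIT proteins bind the ends of foreign RNA, and ISG15 is a ubiquitin-like protein attached to others by HERC6 in mice and removed by USP18. Ifit1 had 6.98, 7.37 and 7.4 in WT and 7.32, 7.28 and 7.62 in DM (change 0.16, SE 0.126, limma adjusted p 0.426). Isg15 had 6.41, 6.74 and 6.68 in WT and 6.64, 6.67 and 6.86 in DM (change 0.11, SE 0.101, adjusted p 0.481). In both genes WT replicate 1 was the lowest library and the other WT values lay within the DM range. Ifit2 changed by -0.01 and Ifit3 by 0.17, neither past the threshold. Among the ISG15 genes Herc6 alone had groups that did not overlap, with 8.03, 8.07 and 7.94 in WT and 8.22, 8.18 and 8.25 in DM (change 0.2, adjusted p 0.0815). Usp18 changed by 0.18 (adjusted p 0.21) and Trim25, a ubiquitin ligase that acts with RIG-I, by 0.28 (adjusted p 0.0825). Trim25 passed the threshold without WT replicate 2 (0.39, adjusted p 0.0114). Of 3 further enzymes of ISG15 conjugation, Ube2l6, its conjugating enzyme, was called higher at 0.34 (adjusted p 0.0132), and lost the call without WT replicate 1 or DM replicate 2 or 3 (adjusted p 0.0515 to 0.0629).

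Parp12 showed the second largest rise of the 41 genes. It encodes a mono-ADP-ribosyltransferase with zinc fingers that bind RNA (ENSMUSG00000038507.6; chromosome 6, 39086410 to 39118349, minus strand; here and below from GENCODE M21 on GRCm38). Its WT libraries read 9.11, 9.32 and 9.07 and its DM libraries 9.55, 9.74 and 9.86. Every DM library stood above every WT library, and the change was 0.55 (SE 0.0967, limma adjusted p 0.00753). Parp14, another mono-ADP-ribosyltransferase, had 10.38, 10.67 and 10.39 in WT and 10.75, 10.67 and 11.02 in DM (change 0.33, SE 0.109, adjusted p 0.0722), and passed without WT replicate 2 (0.43, adjusted p 0.0241). Parp9 and its partner ubiquitin ligase Dtx3l changed by 0.19 (adjusted p 0.153) and 0.04 (0.712). These last genes overlap on opposite strands, and whether reads were assigned by strand is not given in the sources used here.

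Among the antiviral effectors, the changes went both ways. Bst2, or tetherin, which holds budding virus particles at the cell surface (ENSMUSG00000046718.8; chromosome 8, 71534255 to 71537456, minus strand), had 9.72, 9.84 and 9.62 in WT and 10.07, 10.13 and 10.1 in DM. The DM libraries lay close together and above all WT libraries (change 0.37, SE 0.0721, limma adjusted p 0.00997). Ifitm3, which blocks the fusion of viruses with endosomes (ENSMUSG00000025492.6; chromosome 7, 141009586 to 141010770, minus strand), had 11.85, 12.09 and 11.87 in WT and 11.2, 11.29 and 11.57 in DM. Every DM library was below every WT library (change -0.58, SE 0.106, adjusted p 0.00832). The change was opposite in sign to that of Bst2, and both promoter windows printed above hold the ISRE core.

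The next lowest effectors were Cmpk2 and Isg20. Cmpk2, a mitochondrial nucleotide kinase, had 7.65, 7.95 and 8.02 in WT and 7.29, 7.44 and 7.68 in DM, overlapping only through WT replicate 1 and DM replicate 3 (change -0.4, SE 0.12, limma adjusted p 0.0531). It passed the threshold when WT replicate 1 (-0.51, adjusted p 0.0351) or DM replicate 3 (-0.51, 0.0382) was left out. Isg20, an exonuclease that degrades RNA, had 7.66, 7.68 and 7.94 in WT and 7.39, 7.49 and 7.57 in DM, which did not overlap (change -0.28, SE 0.0924, adjusted p 0.0771). Rsad2 (viperin), which lies near Cmpk2 on chromosome 12, had a change of 0.07 (SE 0.075, adjusted p 0.569). Samd9l, a brake on cell growth in blood progenitors, had 11.84, 12 and 11.97 in WT and 11.81, 11.65 and 11.91 in DM, with overlap (change -0.14, adjusted p 0.28). The dynamin-like GTPases Mx1 and Mx2 changed by 0.05 and -0.02, and Mx1 had 5.13, 5.21 and 5.37 in WT and 5.05, 5.19 and 5.61 in DM.

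**Figure D2:**
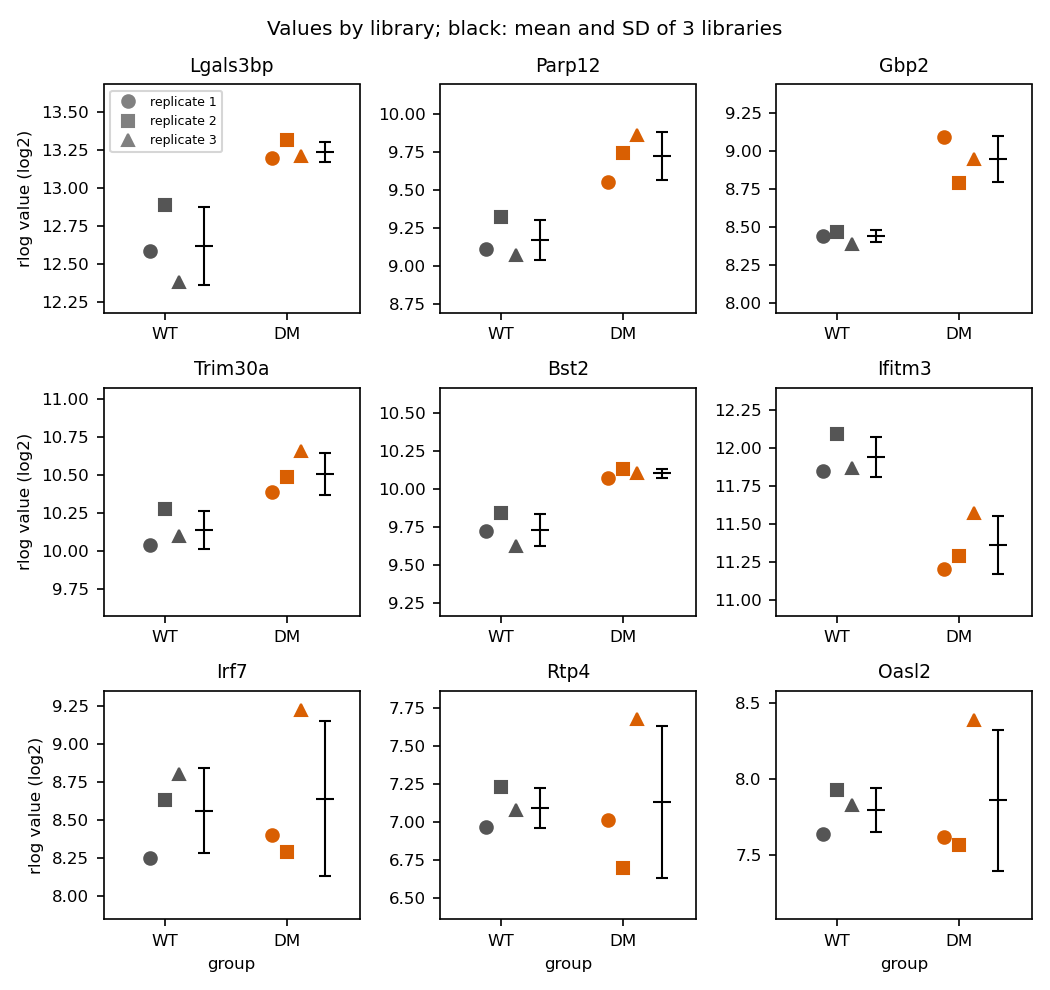
rlog values (y axis, log2, each panel spanning 1.5 units) in the WT and DM libraries for the 6 genes called and for Irf7, Rtp4 and Oasl2, with symbols for the replicate number and the mean ± SD of 3 libraries in black. In the upper 6 panels the groups are apart, from 8.39 to 8.47 against 8.79 to 9.09 for Gbp2, while in the lowest row DM replicate 3 stands above the other 5 libraries.

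Gbp2 encodes a guanylate-binding protein that is induced by interferon gamma and attacks the vacuoles of intracellular pathogens (ENSMUSG00000028270.12; chromosome 3, 142620602 to 142638008, plus strand). It had 8.44, 8.47 and 8.39 in WT and 9.09, 8.79 and 8.95 in DM. The groups did not overlap, with the narrowest WT spread of the called genes (SD 0.0387), and the change was 0.51 (SE 0.0843, limma adjusted p 0.00626). The related Gbp3 changed by 0.21 (SE 0.0927, adjusted p 0.164).

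Lgals3bp showed the largest rise. It encodes a secreted glycoprotein that binds galectin 3 (ENSMUSG00000033880.11; chromosome 11, 118392751 to 118402092, minus strand). Its WT libraries read 12.59, 12.89 and 12.38 and its DM libraries 13.2, 13.32 and 13.21, without overlap (change 0.62, SE 0.116, limma adjusted p 0.00925). Trim30a, a regulator of Toll-like receptor signalling from a cluster of related genes (ENSMUSG00000030921.17; chromosome 7, 104409025 to 104465193, minus strand), had 10.04, 10.28 and 10.1 in WT and 10.39, 10.49 and 10.66 in DM. The groups were separate by a small margin, and the change was 0.38 (SE 0.0906, adjusted p 0.0235). The call of Trim30a was lost when WT replicate 1 was left out (0.33, adjusted p 0.0987), as it was when DM replicate 2 (0.39, 0.0698) or DM replicate 3 (0.3, 0.0925) was, while the other 5 called genes kept theirs in all 6 fits without 1 library. Reads shared with close relatives make the values of Trim30a, Gbp2 and Ifitm3 uncertain, since the counting of such reads is not given in the sources used here.

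The remaining genes did not pass. Ifi35 had 8.98, 9.08 and 9.14 in WT and 9.28, 9.25 and 9.27 in DM, which did not overlap (change 0.2, SE 0.0672, limma adjusted p 0.0815). Xaf1, which promotes cell death, changed by 0.16 while the nuclear body protein Sp110 had 10.61, 10.71 and 10.68 in WT and 10.5, 10.7 and 10.67 in DM, which overlapped (change -0.04, adjusted p 0.723). Rtp4, a chaperone of cell surface receptors, had 6.97, 7.23 and 7.08 in WT and 7.01, 6.7 and 7.68 in DM, so that the highest and the lowest value were both in DM (change 0.04, SE 0.201, adjusted p 0.919).

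The members moved together between libraries of the same group. DM replicate 3 held the highest of the 6 values for 30 of the 41 genes (73.2%), whereas it did so for 14% of all tested genes. Within DM it was the highest library for 36 members (87.8%, against 29.3% of all genes). Within WT, replicate 1 was the lowest library for 33 members (80.5%, against 26% of all genes). The median difference between DM replicate 3 and the mean of the other DM libraries was 0.25 over the members and -0.01 over all genes, and it was above 0.3 for 14 members (34.1%) but for 1.61% of all genes. It was 0.88 for Irf7, 0.82 for Rtp4, 0.8 for Oasl2 and 0.74 for both Oas2 and Oas3, and these 5 genes, singled out after their values were seen, had changes between groups from -0.06 to 0.07. Of the genes called higher, Bst2, Lgals3bp and Gbp2 showed almost none of it (0, -0.05 and 0.01), while Parp12 and Trim30a had 0.21 and 0.22.

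**Figure D3:**
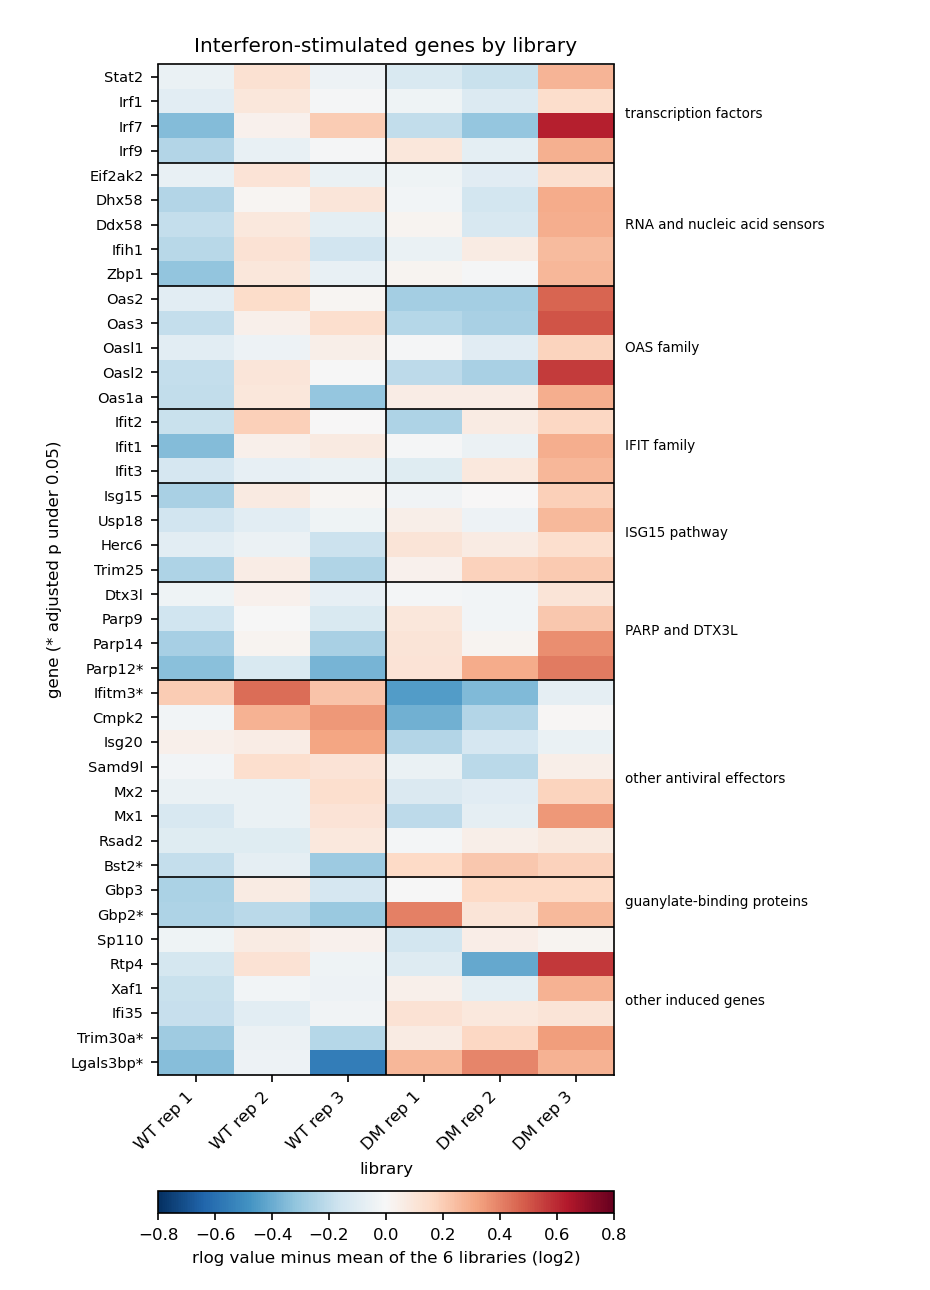
Deviation of each rlog value from the mean of the 6 libraries (colour, log2) for the 41 genes in rows, grouped by role, and the libraries in columns, with asterisks at genes past an adjusted p of 0.05. The DM replicate 3 column is the highest in 30 rows, and the WT replicate 1 column is the lowest of the WT columns in 33.

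With WT replicate 1 and DM replicate 3 both left out, an alternative chosen after seeing the data, 18 of the 41 genes had a higher mean in DM, beside 51.3% of all tested genes, and the median change was -0.05. In that fit of 2 against 2 libraries, 436 genes were called in place of 2611, and 25.2% of these calls were higher in DM in place of 66.1%. Only Ifitm3 (-0.73, limma adjusted p 0.0176) and Cmpk2 (-0.62, 0.0178) were called among the members, both lower. At an unadjusted limma p, 4 members passed 0.05 as higher and 8 as lower. The share of all genes passing in this way was not counted for this fit, so these counts cannot be read as particular to the members. The genes that had been called higher had changes of 0.62 for Lgals3bp (adjusted p 0.0922), 0.51 for Gbp2 (0.0692), 0.45 for Parp12 (0.0978), 0.37 for Bst2 (0.127) and 0.25 for Trim30a (0.295).

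**Figure D4:**
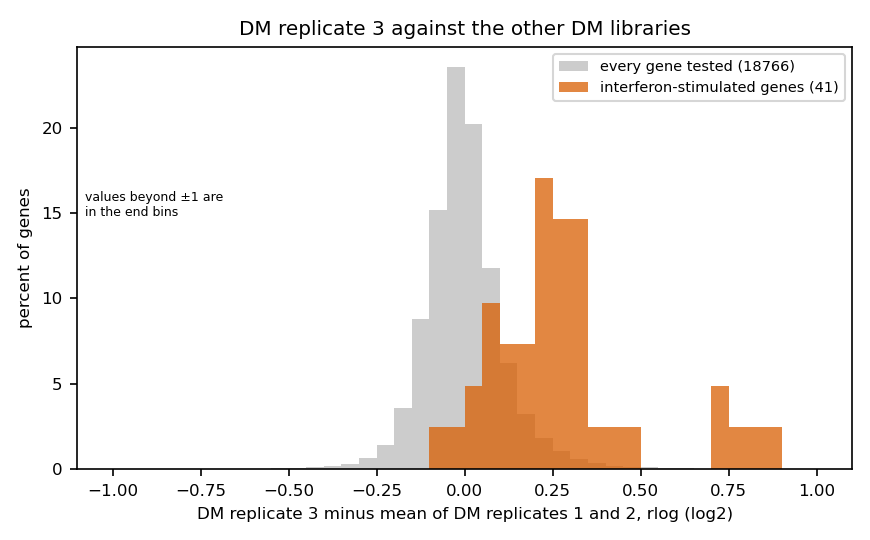
Histogram of the rlog value in DM replicate 3 minus the mean of DM replicates 1 and 2 (x axis, log2, bins of equal width), as a percentage of genes, for all 18766 tested genes in grey and the 41 interferon-stimulated genes in orange. The grey values centre on a median of -0.01 and the orange values on 0.25, with 39 of the 41 above 0.

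Genes around the pathway that are not among the 41 were read in the same fit. Of 17 sensors and adaptors upstream of interferon, 7 were called, all higher (41.2%). Over all tested genes, 13.9% were called and 9.2% were called higher. The median change of the list was 0.21, against 0.01 over all tested genes. The endosomal RNA receptors Tlr7 (0.79, SE 0.141, limma adjusted p 0.00774), Tlr8 (0.65, adjusted p 0.0176) and Tlr3 (0.59, 0.0155) and the factor Irf5 (0.48, 0.012) had the largest changes. Tlr7 kept its call in all 6 fits without 1 library. Tlr8 lost it without WT replicate 1 or DM replicate 2 or 3 (adjusted p 0.0526 to 0.0659), Tlr3 without DM replicate 2 (0.0563) and Irf5 without WT replicate 1 (0.0515). For this list the count fell to 2 without WT replicate 1 or DM replicate 2, 3 without DM replicate 3 and 4 without WT replicate 3. Calls over all genes fell in those fits too, from 2611 to 1185, 1119, 1537 and 1998 in that order.

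Among 18 tested negative regulators, 2 were called higher and 1 lower (16.7%, near the 13.9% of all tested genes). Socs3, a feedback inhibitor of JAK kinases, had 11.09, 11.38 and 11.11 in WT and 11.76, 11.89 and 11.9 in DM (change 0.65, SE 0.0903, limma adjusted p 0.00307), and kept its call in all 6 fits without 1 library. Tnfaip3 (A20), which restrains NF-kB, changed by 0.39 (adjusted p 0.0101) and was at 0.35 (0.0507) without WT replicate 1. Rnaseh2c, a subunit of the nuclease that clears RNA from DNA, changed by -0.29 (0.0492) and lost its call without WT replicate 1 or 2 or DM replicate 1 or 3 (0.091 to 0.164). This list had 1 gene called without WT replicate 1, and 2 to 4 without any other single library. Over all genes limma called 1185 without WT replicate 1, and 1119 to 3475 without any other single library.

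A further 47 tested interferon-stimulated genes that were not members had 8 called, all higher (17%). This was near the 13.9% of all tested genes called, of which 9.2% were called higher and 4.71% lower. The median change over the 47 was 0.16, against 0.01 over all tested genes. Ifi207 (0.76, SE 0.147, limma adjusted p 0.0102), a protein of the family of interferon-induced DNA sensors, Slfn5 (0.58, adjusted p 0.0275), Shisa5 (0.52, 0.00814) and Ifi203 (0.51, 0.0337) had the largest changes. Slfn5 lost its call without WT replicate 1 or 3 or DM replicate 3 (adjusted p 0.0661 to 0.0985), and Ifi203 without WT replicate 1 or 3 or DM replicate 2 or 3 (0.0653 to 0.105). Leaving out WT replicate 1 gave a count of 3, DM replicate 3 gave 4, DM replicate 2 gave 5 and WT replicate 2 gave 12. The counts over all genes in these fits were 1185, 1537, 1119 and 3475, in place of 2611. Of 24 tested genes of interferon gamma responses and antigen presentation, 8 were called, all higher (33.3%, against 9.2% of all genes). The median change over the 24 was 0.24. The called genes were led by Cd274 (PD-L1, 0.73, adjusted p 0.00385), Irf8 (0.56, 0.016), B2m (0.5, 0.0282) and Gbp8 (0.45, 0.0146). Cd274 kept its call in all 6 fits without 1 library. Irf8 and Gbp8 lost theirs without WT replicate 1 or DM replicate 2 or 3 (0.0608 to 0.0632 and 0.0509 to 0.0592), and B2m in each such fit except that without WT replicate 2 (0.0528 to 0.11). Leaving out WT replicate 1 gave a count of 2, DM replicate 2 gave 3 and DM replicate 3 gave 5. Over all genes the counts in these fits were 1185, 1119 and 1537. Without both WT replicate 1 and DM replicate 3, limma called 0 of the 120 tested genes of the 6 lists. These were receptors, sensors, regulators, ISG15 enzymes, other interferon-stimulated genes and interferon gamma responses. That fit called only 436 of all 18766 tested genes. At an unadjusted limma p under 0.05 there were 31 of the 120. The share of all genes at that p was not counted, so this number cannot be read as particular to the lists.

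Markers of several other cell types moved with the groups, and summed levels below are the log2 of their summed linear values. Over all tested genes, 9.2% were called higher in DM and 4.71% lower. Of 10 monocyte and macrophage markers, 6 were called higher in DM and 2 lower, and none was below the minimum mean. The sum was 16.13 to 16.62 in WT and 16.84 to 17.17 in DM. The largest changes were -1.13 for the monocyte marker Ly6c2 (limma adjusted p 0.00361), 0.96 for the lysosomal protease Ctss (0.0115) and 0.94 for Cd68 (0.00777). All 10 neutrophil markers were called lower, led by the granule genes Mpo (-4.23), Elane (-3.96) and Prtn3 (-3.37), with a sum of 18.37 to 18.85 in WT and 16.64 to 17.66 in DM. Eosinophil markers had 3 of 5 called lower, Epx (-1.46), Prg3 (-1.29) and Prg2 (-1.16), with a sum of 14.97 to 15.09 in WT and 13.45 to 14.06 in DM. Megakaryocyte markers had 2 of 5 called higher, Gp1ba (0.55) and Vwf (0.54), with a sum of 14.18 to 14.39 in WT and 14.46 to 14.83 in DM. The call of Gp1ba was lost without DM replicate 2.

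Of 8 lymphoid markers, 5 were below the minimum mean and Nkg7 was called lower (-1.89), with a sum of 8.54 to 9.05 in WT and 7.17 to 7.42 in DM. Of 6 markers of plasmacytoid dendritic cells, which make much of the body's type I interferon, Siglech, Ccr9, Klk1 and Cox6a2 were below the minimum and neither Tcf4 nor Runx2 was called. Their sum was 10.84 to 11.14 in WT and 10.96 to 11.23 in DM. Conventional dendritic cell markers had 2 of 5 tested called higher, Itgax (0.98) and Clec9a (0.23), and Flt3 (-0.3) lower, with Xcr1 and Cd209a below the minimum and a sum of 11.75 to 12.63 in WT and 12.94 to 13.2 in DM. Flt3 was also the 1 called of 6 stem and progenitor markers, whose sum was 15.6 to 15.77 in WT and 15.67 to 15.98 in DM. The calls of Flt3 and Clec9a were lost in each fit without 1 library except that without WT replicate 2. No mast cell and basophil marker (18.38 to 18.72 in WT, 18.52 to 18.94 in DM) and no tested erythroid marker (8.61 to 9.48 in WT, 8.44 to 8.8 in DM, Hba-a1 below the minimum) was called.

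Within DM, replicate 3 was the highest library for 7 of the 10 neutrophil markers and 4 of the 5 eosinophil markers, against 29.3% of all genes. Of the 10 monocyte and macrophage markers it was the highest for 4, and DM replicate 2 for 5. It was the lowest for all 5 tested erythroid and all 5 megakaryocyte markers, against 34.6% of all genes. The part of these cell types in the changes of the interferon-stimulated genes, and in the values of DM replicate 3, was not tested, and in bulk RNA fewer cells of a type and less RNA per cell cannot be told apart.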

How the data were processed

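Total RNA libraries of 6 cultures were compared, 3 per group, grouped by their titles. The authors deposited rlog values, which are log2 values, as read from the table's name and its values (-1.97 to 21.88, not whole). Per the submitters' processing notes, cutadapt 2.6, STAR 2.7.3, DESeq2 1.30.0 and mm10 were used; their settings, the counting and its use of strand are not given in the sources used here. The 142699 lines were merged to 55487 genes. limma 3.58.1 (R 4.3.3; lmFit, eBayes with a mean-variance trend, no covariates, prior degrees of freedom 5.82) was fitted to the 18766 genes averaging 3 or more, with Benjamini-Hochberg adjustment over all of them.

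The members and gene lists were chosen with earlier results of these data known. Per-library values are given for members with an adjusted p under 0.05, the 6 largest rises and falls, and Isg15, Ifit1, Mx1, Irf7, Irf9 and Stat2, with a few others named after their values were seen. From each gene list up to 4 called genes with the largest change are named, with Ifnar1, Ifnar2, Jak1, Tyk2 and Ifnb1, and from marker lists up to 3 called genes; 1 further gene of this rule is not reported here. Versioned identifiers of 39 members were found in GENCODE M21, and 17 of these overlap another annotated gene. On simulated data of 18766 genes, the test called 66% of 97 genes changed by 0.5 and 96.1% of 103 changed by 1. No other gene was changed, and 6 of the unchanged genes were called. Noise was normal and independent between genes, unlike the joint movement of the members between libraries. These shares therefore need not hold for the real data. Alternatives were no filter, a minimum of 5, no trend, quantile normalization, centring on library medians, a replicate block, and leaving out libraries. Plots were drawn with matplotlib 3.10.9.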

Additional observations from a re-analysis of the deposited data

How the results depend on the processing

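Over 12 other settings, Bst2, Gbp2, Ifitm3, Lgals3bp and Parp12 lost their calls in 1, the fit without a filter on the mean, and Trim30a in 4. Leaving off the filter brings in genes of low level, 7553 of them listed at 0 in every library. In that fit limma called 138 genes in place of 2611, and 0 members, 0 higher and 0 lower (adjusted p 0.141 to 0.238 for the 6 genes). At an unadjusted limma p under 0.05 there were 10 members, and the share of all genes at that p was not counted. The cause of the lost calls was not tested. The 6 members called remained so after quantile normalization, without the trend, with a minimum of 5, after centring and with the block. Centring on library medians and a minimum of 5 each gave 2 members called lower, Cmpk2 being added, and the minimum of 5 also called Parp14 higher. Leaving out 1 library gave 1119 to 3475 genes called (1119 without DM replicate 2, 1185 without WT replicate 1, 1537 without DM replicate 3), 4 to 8 members called higher and 1 to 2 lower. Without both WT replicate 1 and DM replicate 3, added after seeing the data, 436 genes were called, 25.2% of them higher (66.1% with all libraries), and 2 members, 0 higher and 2 lower, and the median change was -0.05, against 0.03 to 0.19 with 1 library left out. With the replicate number as a block, 9 members were called, of which 3 were lower (Ifitm3, Cmpk2 and Isg20), and 3742 genes in all. Deviations from the group means correlated by 0.491, 0.116 and 0.0412 between libraries numbered 1, 2 and 3. Between unlike numbers they correlated by -0.336 to -0.161 where 1 of them was a replicate 1. The correlation was 0.124 for WT replicate 3 with DM replicate 2, and 0.0767 for WT replicate 2 with DM replicate 3. The labels state no pairing, and these values do not settle whether the numbers pair the libraries, so the main fit was left without the block. The deposited values hold no counts, so count models were not run and the precision at low levels is unknown.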
